A study of Mus musculus with 24 samples.

Results

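Liver RNA of mice labelled as lacking the nuclear receptor PPARα in the liver was compared with that of floxed mice, both on a regular diet (RD), across all measured genes. The comparison takes the 3 libraries labelled RD LPKO against the 3 labelled RD WT, chosen by their titles, 6 of the 24 libraries of the series. WT mice carried loxP-flanked FoxO1 and PPARα alleles and no Cre is stated for them. The labels give LPKO mice as PPARα-/- and the series describes liver-specific knockouts made by crossing floxed mice to Albumin-Cre, a transgene active in hepatocytes, so other liver cells of LPKO mice may keep the gene. The FoxO1 status of LPKO mice, age and sex are not given in the labels. All mice had been on their diet for 3 weeks and were fasted for 4 h. Replicates carry only numbers, and nothing says that each came from its own mouse; p-values then reflect only the scatter among these libraries, which may be technical. Other groups are used to ask whether the same genes moved elsewhere: WT and LPKO mice on a high-fat diet (HFD), and RD mice labelled FoxO1-/- (LFKO) or FoxO1-/- with PPARα-/- (LFPKO). The gene filter and the fit use all 24 libraries, so the other groups also help set the scatter behind each p-value.

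PPARα is a fatty acid-activated transcription factor that pairs with RXR and binds direct repeats of a hexamer spaced by 1 base. In the fasting liver it is known for raising the genes that import, activate and oxidise fatty acids in mitochondria and peroxisomes, hydroxylate them in the endoplasmic reticulum and turn their acetyl groups into ketone bodies. It is also known to restrain inflammatory gene expression.

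Levels are TPM, a gene's part of all transcripts in a library scaled to a fixed total; this unit keeps no read depth, so the depth is unknown. Changes are log2 fold changes ± SE of LPKO over WT on the log2(TPM + 1) scale, which understates the change of weakly expressed genes. A gene is called higher or lower when its limma p, adjusted over all 10551 genes tested, is under 0.05. A correlation across genes of 0.981 to 0.989 linked libraries of RD WT and 0.985 to 0.988 those of RD LPKO, against 0.969 to 0.974 between the groups. In a principal component analysis of these libraries the groups separated along the first component, which held 48.1% of the variance. RD WT replicate 1 stood apart along the second (21.4%), at 26.2 against -15.3 and -11.9 for the other WT libraries and -5.03 to 3.59 for the LPKO libraries. Summed over 8 hepatocyte markers such as albumin, levels were 70790 to 72960 TPM in WT and 60430 to 68500 TPM in LPKO libraries. The median log2 change of these markers was -0.001, and 1 was called higher and 0 lower (12.5%, against 5.85% of all tested genes).

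Ppara (chr15:85734983-85802819, plus strand, GRCm38, protein-coding) was not reduced in the libraries labelled LPKO. It stood at 54.8, 48.4 and 56.1 TPM in the WT and at 70.1, 64.6 and 63.4 TPM in the LPKO libraries. Every LPKO library was above every WT library, and the difference did not pass the test (0.31 ± 0.14, adjusted p = 0.235). A gene's TPM also counts shortened transcripts from a deleted allele, and the sources used here do not name the deleted exon. The gene therefore checks nothing, and directions below refer to the libraries as labelled. Foxo1 was at 4.31 ± 0.206 TPM in WT and 4.41 ± 0.263 TPM in LPKO libraries (SD, n = 3; 0.03 ± 0.14, adjusted p = 0.954). In RD LFKO libraries, labelled FoxO1-/-, it was at 0.308 to 0.484 TPM. Of the 17 genes for PPAR and RXR receptors and their coactivators 0 were called by limma, against 617 of all tested genes (5.85%); 1984 tested genes had an unadjusted p under 0.05.

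Among the genes that fell most in RD LPKO livers were the fatty acid omega-hydroxylase genes Cyp4a14 and Cyp4a10, the pantetheinase gene Vnn1, the lysophospholipid transporter gene Mfsd2a and the lipid droplet gene Fitm1. In RD LPKO against RD WT, 371 were called higher (3.52%) and 246 lower (2.33%). A log2 change past 1 was seen for 105 of the lower and 84 of the higher genes, and the median size was 0.93 among the lower and 0.72 among the higher. The 3 LPKO libraries lay wholly below the 3 WT libraries in 245 of the 246 lower genes and wholly above them in 363 of the 371 higher genes; over all tested genes the groups did not overlap in 29.3%, 19.2% higher and 10.1% lower. Without RD WT replicate 1 the counts were 185 higher and 229 lower, without RD LPKO replicate 1 they were 161 and 165, and without RD LPKO replicate 3 they were 173 and 139.

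Cyp4a14, whose enzyme hydroxylates the terminal carbon of fatty acids, was at 808, 288 and 482 TPM in the WT and at 16.9, 8.81 and 38.6 TPM in the LPKO libraries. The lowest WT library was thus far above the highest LPKO library, and the change was -4.66 ± 0.70 (adjusted p = 0.000281). Its neighbour Cyp4a10 stood at 691, 391 and 577 TPM in WT and 29.7, 24.6 and 53.2 TPM in LPKO libraries (-3.95 ± 0.55, adjusted p = 0.000115). Cyp4a32 (-3.16 ± 0.24) and Cyp4a31 (-2.01 ± 0.19) lie in the same cluster, between 115486200 and 115621602 of chromosome 4 with both genes above, and fell as well. Cyp4a12a (-0.90, adjusted p = 0.373) and Cyp4a12b (-0.65, adjusted p = 0.645), of the same family, did not pass. Reads from such near-identical genes may be split between them uncertainly, which also holds for the Cyp2a, Mup and Apol9 genes below.

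Vnn1 makes the enzyme that frees cysteamine and vitamin B5 from pantetheine. Its level was 60.7, 25.4 and 34.5 TPM in WT and 2.28, 1.26 and 2.73 TPM in LPKO libraries, with no overlap (-3.68 ± 0.33, adjusted p = 6.96e-07). Mfsd2a, a transporter of lysophospholipids, was at 67.5, 33.1 and 26.3 TPM in WT and 1.85, 3.65 and 3.15 TPM in LPKO libraries (-3.39 ± 0.58, adjusted p = 0.000839). In both genes RD WT replicate 1 was the highest library. Also among the 15 deepest falls were Serpina7, the gene for thyroxine-binding globulin (64.4 to 10.4 TPM), the cytidine deaminase gene Cda (14.1 to 1.62 TPM), the galectin gene Lgals4 (16.7 to 2.15 TPM) and Rab30, a Golgi GTPase gene (12.6 to 1.58 TPM), given as WT and LPKO means. Arhgef10, Cnmd and Clstn3 completed them, with changes of -2.04 to -1.93.

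**Figure D1:**
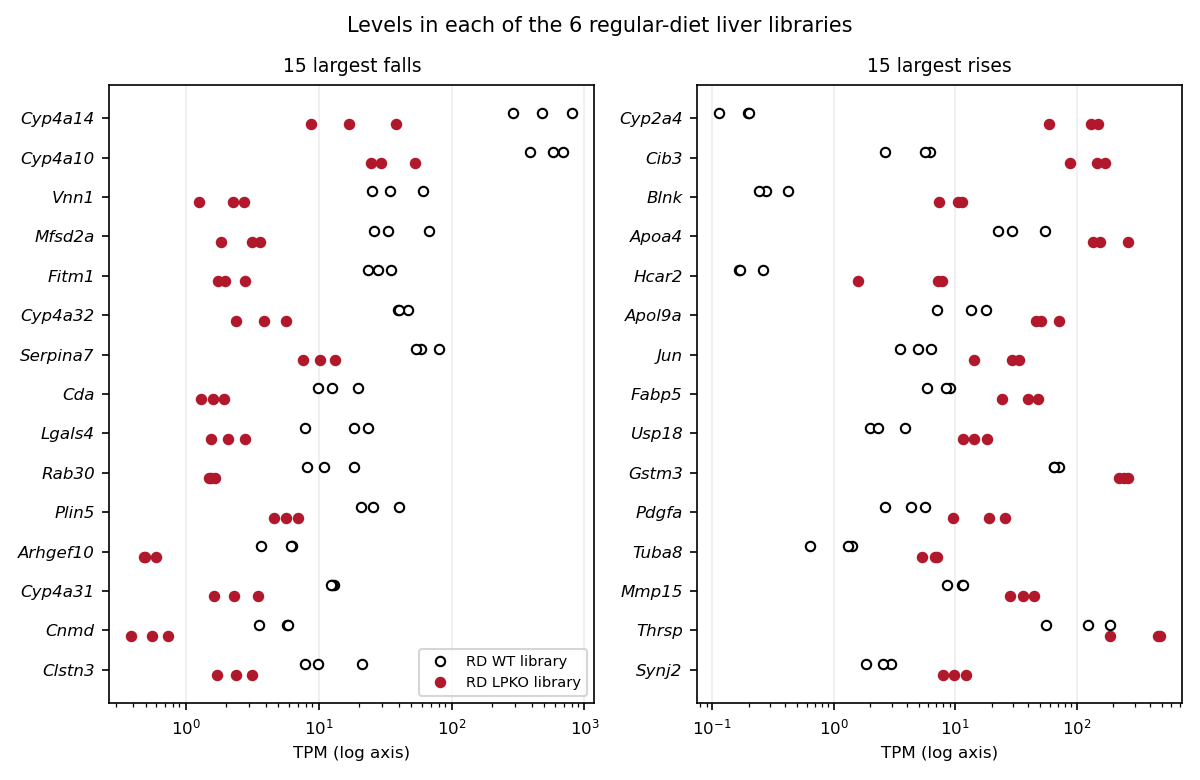
TPM on a log axis in each of the 3 RD WT libraries (open circles) and the 3 RD LPKO libraries (red circles) for the 15 deepest falls and the 15 largest rises that met the rule for naming genes. Open and filled circles do not overlap in any line; in Thrsp the highest WT value (186 TPM) lies next to the lowest LPKO value (186 TPM).

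Genes that rose most were a mixed group. Cib3, a calcium- and integrin-binding protein gene, stood at 2.62, 6.16 and 5.59 TPM in the WT and 145, 88.3 and 171 TPM in the LPKO libraries (4.56 ± 0.48, adjusted p = 4.08e-06). The B cell adaptor gene Blnk went from 0.276, 0.418 and 0.241 TPM to 10.4, 7.40 and 11.3 TPM (3.01 ± 0.24, adjusted p = 2.32e-07). Both were far lower in every WT than in every LPKO library, with LPKO replicate 2 the lowest of the 3. Apoa4, an apolipoprotein of triglyceride-rich particles, was at 55.1, 29.0 and 22.5 TPM in WT and at 261, 155 and 137 TPM in LPKO libraries (2.38 ± 0.32, adjusted p = 9.48e-05).

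The P450 gene Cyp2a4 was at most 0.202 TPM in every WT library and at 130, 59.3 and 150 TPM in the LPKO libraries (6.50 ± 1.17, adjusted p = 0.0015). Cyp2a4 was also high in RD LFKO libraries, not labelled PPARα-/-, at 227 to 233 TPM, and stood at 72.3 to 532 TPM in RD LFPKO libraries. Its neighbour Cyp2a5 was already abundant and stood at 566 ± 48.2 TPM in WT and 1343 ± 289 TPM in LPKO libraries (1.22 ± 0.35, adjusted p = 0.0406), a call that was lost without any of the 3 WT libraries and without LPKO replicate 1 or 3 (adjusted p up to 0.161). Hcar2, the receptor for nicotinic acid and the ketone body β-hydroxybutyrate, was at most 0.261 TPM in WT and at 7.72, 1.59 and 7.25 TPM in LPKO libraries. Gstm3, a glutathione transferase gene, was at 64.4, 71.6 and 64.7 TPM in WT and 263, 224 and 246 TPM in LPKO libraries (1.85 ± 0.31, adjusted p = 0.000691), among the tightest of the large rises. The growth factor gene Pdgfa (4.18 to 18.2 TPM), the tubulin gene Tuba8 (1.13 to 6.40 TPM), the membrane protease gene Mmp15 (10.4 to 36.2 TPM) and the phosphoinositide phosphatase gene Synj2 (2.45 to 9.998 TPM) were higher too. The fatty acid binding protein gene Fabp5 (7.75 to 37.2 TPM) and the lipogenic gene Thrsp (122 to 379 TPM) were called at adjusted p = 0.0347 and 0.0331. Fabp5 lost its call without any single library, and Thrsp without WT replicate 1 or 3 or LPKO replicate 2 or 3, with adjusted p up to 0.122 and 0.170.

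In absolute terms the largest loss was in Fabp1, the liver fatty acid binding protein that carries ligands to PPARα. It took 8689, 10854 and 9888 TPM in the WT libraries and 5678, 4453 and 5248 TPM in the LPKO libraries, a mean loss of 1.91-fold (-0.94 ± 0.19, adjusted p = 0.00408). Every LPKO library was below every WT library. Large losses in TPM were also seen for Cyp4a10, Cyp4a14, Acaa1b, Slc27a2, Mup12, Acsl1, Plin2 and Eci2. On the other side the heme-binding protein gene Hpx rose from 1954 ± 39.1 to 3821 ± 575 TPM (0.96 ± 0.16, adjusted p = 0.000702), and the interferon-inducible genes Ifitm3 (396 to 754 TPM) and Ly6e (184 to 535 TPM) and the cathepsin gene Ctsl (383 to 690 TPM) rose. Mup20, Selenop, Hp, Nudt7 and Cps1 also gained many TPM, but each lost its call without at least 1 RD WT library and without LPKO replicate 3 (adjusted p up to 0.198).

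Mitochondrial β-oxidation shortens fatty acids by steps that need carnitine import, acyl-CoA dehydrogenases, hydration, a second oxidation and thiolysis. Of the 24 genes listed for it, all were tested, 15 were called lower and 0 higher (62.5%, against 5.85% of all tested genes). The median change was -0.62, against 0.045 over all tested genes. Without RD WT replicate 1 the count was 13, and over leaving out each library it ran from 13 to 15. The largest falls in the list were those of Slc25a20 and Cpt2. Slc25a20, the exchanger that carries acylcarnitines across the inner membrane, was at 97.4, 75.0 and 75.2 TPM in WT and 24.6, 22.7 and 23.6 TPM in LPKO libraries (-1.75 ± 0.17, adjusted p = 1.68e-06). Cpt2, which returns the acyl group to coenzyme A inside the mitochondrion, was at 115, 83.5 and 90.0 TPM in WT and 34.7, 26.7 and 29.9 TPM in LPKO libraries (-1.63 ± 0.16, adjusted p = 1.93e-06). Neither gene had overlapping groups.

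Cpt1a, the outer-membrane enzyme that sets the rate of fatty acid entry, averaged 148 ± 17.0 TPM in WT and 156 ± 14.6 TPM in LPKO libraries (0.08 ± 0.12, adjusted p = 0.771), and its groups overlapped. The carnitine transporter gene Slc22a5 (17.96 to 6.21 TPM) and Acsl1, the main acyl-CoA synthetase of liver (437 ± 88.0 to 162 ± 4.51 TPM), fell by 1.35 and 1.41 on the log2 scale. Of the acyl-CoA dehydrogenases, Acadvl for very long chains (-1.06 ± 0.13), Acadl for long chains (-0.92 ± 0.18) and Acads for short chains (-0.63 ± 0.14) were called lower, while Acadm for medium chains was at 286 ± 44.0 and 226 ± 28.0 TPM (-0.34 ± 0.21, adjusted p = 0.430). Electrons from these enzymes pass through Etfb (-0.82 ± 0.15) to Etfdh, which stood at 163, 148 and 158 TPM in WT and 68.3, 66.1 and 71.1 TPM in LPKO libraries (-1.18 ± 0.11, adjusted p = 1.02e-06). Etfa, the partner subunit of Etfb, was not called (-0.10, adjusted p = 0.735). Both subunits of the trifunctional protein were called, Hadhb at -0.69 ± 0.12 and Hadha at -0.48 ± 0.12. The call of Hadha was lost without WT replicate 1 or 3 or any LPKO library (adjusted p up to 0.0928), that of Crat without WT replicate 1 or LPKO replicate 3 (up to 0.0765) and that of Decr1 without LPKO replicate 2 (0.0578).

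Peroxisomes shorten very long and branched fatty acids. In their list 23 of 24 genes were tested. Of these, 11 were called lower and 1 higher (52.2%, against 5.85% of all tested genes), and the median was -0.65. Between 8 and 10 were lower when any library was left out, 8 of them without RD WT replicate 1. Decr2, which removes awkward double bonds, was at 108, 117 and 113 TPM in WT and 34.4, 27.1 and 35.2 TPM in LPKO libraries (-1.78 ± 0.15, adjusted p = 3.84e-07). Eci2, an isomerase of the same route, was at 301, 305 and 311 TPM in WT and 97.5, 83.5 and 89.1 TPM in LPKO libraries (-1.76 ± 0.17, adjusted p = 1.54e-06). In both genes every WT library lay more than 3 times above every LPKO library.

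The bifunctional enzyme gene Hsd17b4 (178 to 93.7 TPM), the isomerase gene Ech1 (262 to 99.98 TPM), the branched-chain oxidase gene Acox2 (127 to 66.2 TPM), the lyase gene Hacl1 (210 to 97.2 TPM) and the carnitine octanoyltransferase gene Crot (331 to 185 TPM) fell with adjusted p of at most 0.00239. Ehhadh, the other bifunctional enzyme gene, did not pass (-0.69 ± 0.21, adjusted p = 0.0506), and its groups did not overlap. The calls of the thiolase gene Acaa1b, the transporter genes Abcd2 and Abcd3 and, in the opposite direction, the coenzyme A diphosphatase gene Nudt7 were lost without WT replicate 1 or 3 or any LPKO library, and those of Abcd2 and Abcd3 also without WT replicate 2 (adjusted p up to 0.189). Of 20 peroxins and membrane proteins, 3 were called lower, namely Pxmp4 (49.7 to 16.7 TPM), Pex11a, which drives peroxisome division (68.7 to 27.9 TPM), and Pex16 (62.9 to 32.0 TPM). Mpv17l was called higher (0.64 ± 0.17), a call lost without WT replicate 1 or 3 or LPKO replicate 2 or 3 (adjusted p up to 0.172). Calls either way made up 20.0% of the 20 peroxins and membrane proteins, against 5.85% of all tested genes.

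**Figure D2:**
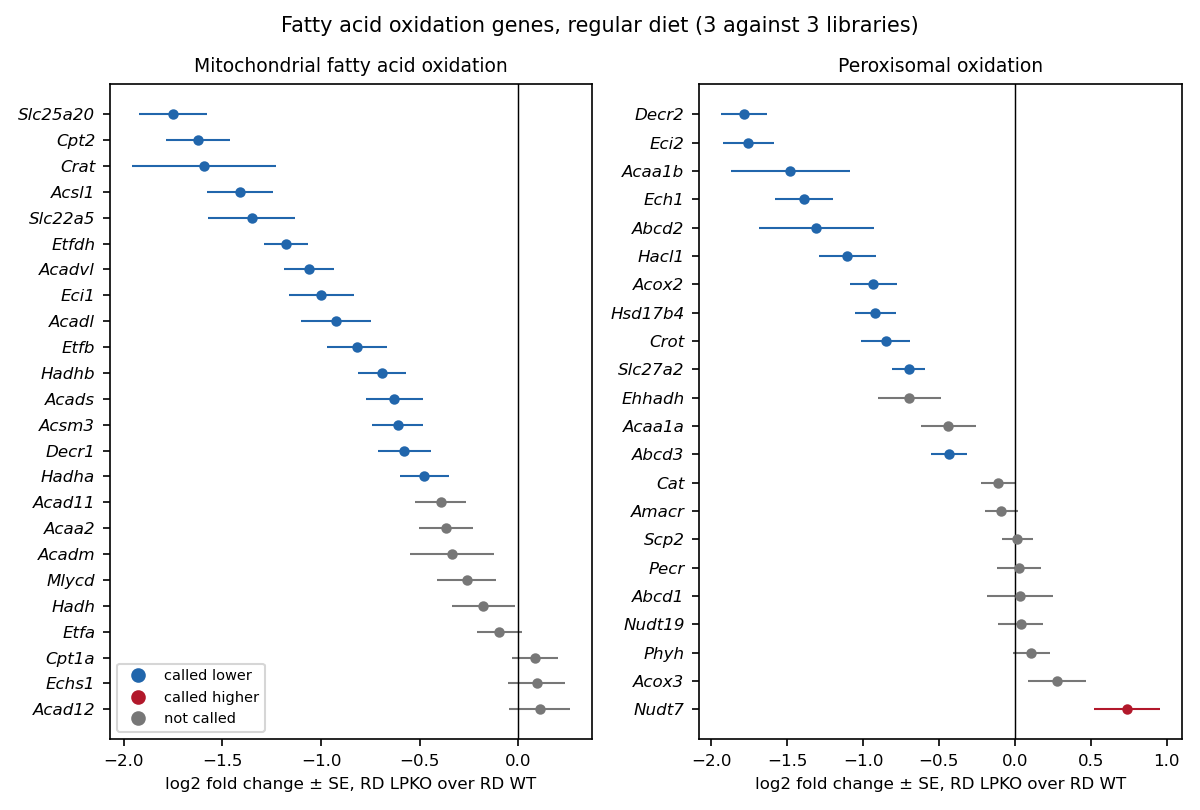
Log2 fold change ± SE of RD LPKO over RD WT for the 24 mitochondrial and 22 of the 23 peroxisomal genes tested; blue marks genes called lower, red called higher and grey not called. Slc25a20 (-1.75) and Decr2 (-1.78) lead the panels, Cpt1a lies at 0.08, and Nudt7 (0.74) is the 1 gene called higher.

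Of 15 omega-hydroxylation genes, 6 were called lower and 0 higher (40.0%, against 5.85% of all tested genes, median -0.65), led by the Cyp4a genes. The count was 4 or 5 without any 1 library. The aldehyde dehydrogenase gene Aldh3a2, which finishes that route, averaged 162 ± 19.6 TPM in WT and 67.4 ± 12.2 TPM in LPKO libraries (-1.26 ± 0.31, adjusted p = 0.0176), and this call was lost without WT replicate 1 or 3 or LPKO replicate 2 (adjusted p up to 0.0779). Of 11 acyl-CoA thioesterases, 2 were lower (18.2%): peroxisomal Acot8 (15.9 to 8.28 TPM) and Acot12. The call of Acot12 was lost without any 1 library (adjusted p up to 0.149). Acot1, an inducible cytosolic member, was at 128, 51.5 and 65.3 TPM in WT and 34.7, 41.2 and 37.6 TPM in LPKO libraries (-0.98 ± 0.30, adjusted p = 0.0561).

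Genes that move fatty acids into the cell and store them as triglyceride were partly lower. Of 15 uptake and binding genes 4 were lower and 1 (Fabp5) higher (33.3%, against 5.85% of all tested genes), with a median of -0.34. Slc27a2, a fatty acid transporter and very long chain acyl-CoA synthetase, went from 1004 ± 31.2 to 621 ± 74.3 TPM (-0.70 ± 0.11, adjusted p = 0.000428). The scavenger receptor gene Cd36 was at 43.0, 30.5 and 46.0 TPM in WT and 10.4, 10.03 and 13.2 TPM in LPKO libraries (-1.73 ± 0.41, adjusted p = 0.0131), with the call lost without WT replicate 1 or 3 or LPKO replicate 1 (adjusted p up to 0.0562). Without WT replicate 3 or LPKO replicate 1 the list held 3 calls.

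Of 15 lipid droplet genes 6 were lower and 0 higher (40.0%, against 5.85% of all tested genes). The list's median was only -0.10, with genes not called on both sides of 0. Fitm1 was at 35.1, 23.7 and 28.0 TPM in WT and 1.98, 1.75 and 2.80 TPM in LPKO libraries (-3.23 ± 0.40, adjusted p = 4.32e-05). Its relative Fitm2 went from 21.5 ± 3.78 to 8.86 ± 1.12 TPM (-1.19 ± 0.15). Among the droplet coat genes Plin5, which ties droplets to mitochondria, was at 40.5, 20.9 and 25.8 TPM in WT and 5.65, 7.03 and 4.65 TPM in LPKO libraries (-2.11 ± 0.36, adjusted p = 0.000836), and Plin2, the main coat of liver droplets, at 537, 309 and 303 TPM in WT and 214, 106 and 159 TPM in LPKO libraries (-1.26 ± 0.27, adjusted p = 0.00586, and 0.0581 in a fit of these 6 libraries alone). In both, RD WT replicate 1 was the highest library and no LPKO library reached the WT range. Hsd17b11 (111 to 61.0 TPM) fell too, and Plin4 (2.56 to 0.393 TPM) lost its call without WT replicate 3 or LPKO replicate 3 (adjusted p up to 0.0761). Genes of triglyceride and phospholipid synthesis held 3 calls in 19 (15.8%). The acyltransferase gene Gpat3 (6.24 to 1.42 TPM) and the choline kinase gene Chkb (39.5 to 22.7 TPM) were lower among them.

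A further list held 21 tested PPARα target genes with other roles. Of these, 9 were lower and 1 higher (47.6%, against 5.85% of all tested genes), with a median of -0.55. Without RD WT replicate 1 there were 8 calls in all. Besides Vnn1, Fabp1, Plin2 and Plin5 they included Creb3l3, a fasting-induced transcription factor (189 ± 8.24 to 116 ± 15.2 TPM), the retinol saturase gene Retsat (211 ± 75.8 to 87.1 ± 15.5 TPM) and Tmem98 (4.52 ± 0.682 to 1.77 ± 0.327 TPM). Fgf21, the fasting hormone, was at 2.51, 0.628 and 1.06 TPM in WT and 0.268, 0.0449 and 0.141 TPM in LPKO libraries (-0.99 ± 0.25, adjusted p = 0.02), with the call lost without WT replicate 1 or LPKO replicate 2 or 3 (adjusted p up to 0.121). Pdk4, the kinase that shuts pyruvate dehydrogenase and is known as a PPARα target, went the other way. It stood at 2.88, 0.884 and 1.53 TPM in WT and 7.38, 3.89 and 7.38 TPM in LPKO libraries (1.41 ± 0.34, adjusted p = 0.0155), a call lost without WT replicate 2 or 3 or LPKO replicate 1 or 3 (adjusted p up to 0.0890). Angptl4, a secreted lipase inhibitor that PPARα is known to raise, was not called (-1.26, adjusted p = 0.158).

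**Figure D3:**
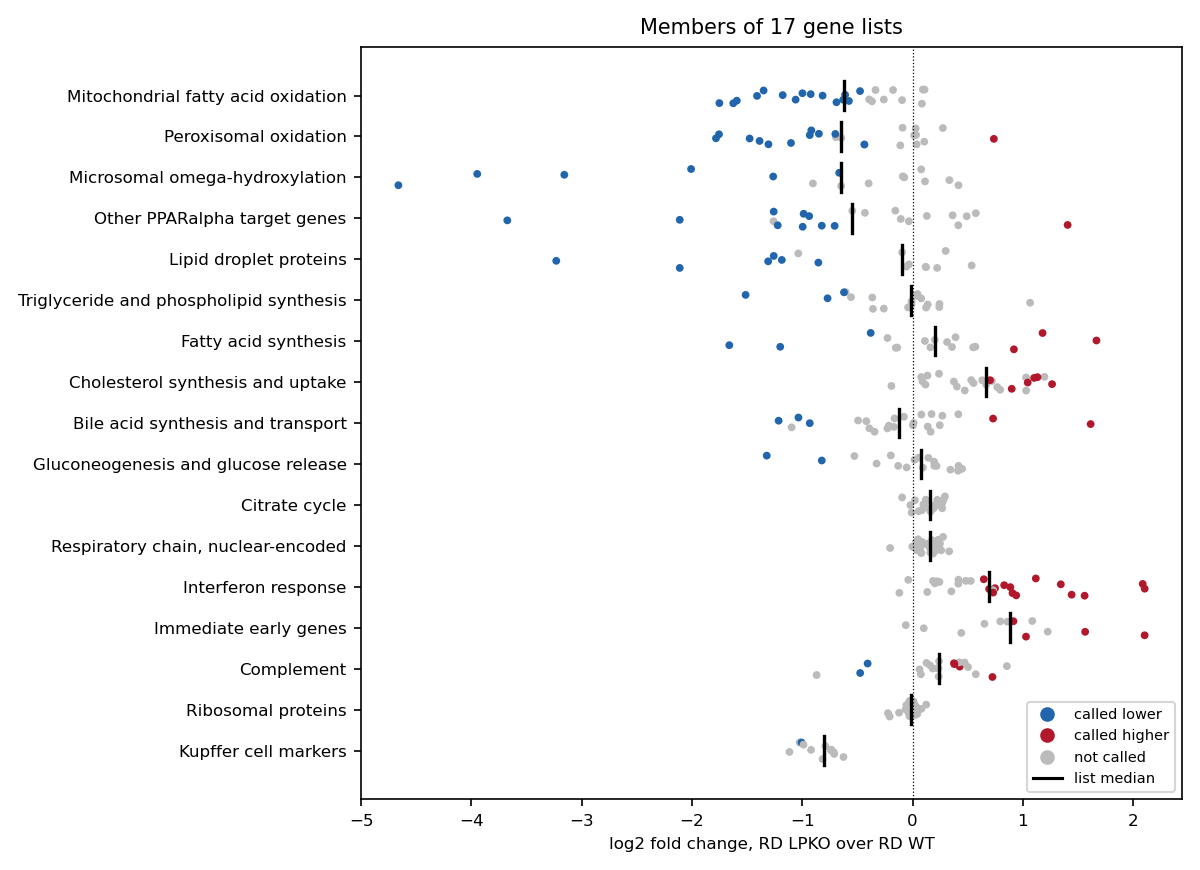
Log2 fold change of RD LPKO over RD WT for each tested member of 17 gene lists; each point is a gene, blue if called lower, red if called higher and grey if not called, with vertical spread only for visibility, and the black bar is the list's median. The fat oxidation lists lie to the left (medians -0.62 and -0.65), the interferon (0.69) and cholesterol (0.67) lists to the right, and the respiratory chain (0.16) and ribosomal protein (-0.02) lists close to 0.

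Promoters were searched for the PPAR element (AGGTCA, any base, AGGTCA), on either strand and from 250 bases before to 50 after the RefSeq start site (GRCm38.p6). A RefSeq promoter was matched for 185 of the 246 lower and 284 of the 371 higher genes. With at most 2 mismatches in the 12 fixed letters a match was found in 5.95% of the lower, 6.34% of the higher, 4.02% of all tested and 4.4% of all genes with a promoter. Allowing 1 mismatch, the shares were 2.16%, 1.41%, 0.654% and 0.644%, the first resting on 4 lower genes and the second on 4 higher genes. Among the called genes with a promoter, a match with at most 2 mismatches was in 1 of 13 mitochondrial oxidation genes (Slc25a20), 1 of 10 peroxisomal genes (Acox2), 0 of 3 omega-hydroxylation genes and 3 of 8 other target genes (Plin2, Creb3l3 and Fabp1). These sites are matches of letters in a short window and no binding was measured. The stretches below are shown because each of these genes was lower and holds a match, in capitals, before its start site. Fabp1 lies at chr6:71199778-71199857 (plus strand), 101 to 22 bases before the start, with 1 mismatch, Adh4 at chr3:138415417-138415496 (plus strand), up to the last base before the start, with 1 mismatch, and Plin2 at chr4:86670230-86670309 (minus strand), with 2 mismatches.
Fabp1: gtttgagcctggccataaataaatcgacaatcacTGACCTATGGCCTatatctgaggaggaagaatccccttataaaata
Adh4: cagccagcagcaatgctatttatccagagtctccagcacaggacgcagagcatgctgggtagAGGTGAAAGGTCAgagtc
Plin2: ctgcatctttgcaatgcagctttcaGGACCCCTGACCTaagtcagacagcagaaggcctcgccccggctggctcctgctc
In Fabp1 and Plin2 the element reads on the opposite strand, so its hexamers appear as TGACCT. Adh4, an alcohol dehydrogenase that oxidises retinol, was at 133, 161 and 176 TPM in WT and 68.4, 77.1 and 78.2 TPM in LPKO libraries (-1.05 ± 0.22, adjusted p = 0.00474).

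Fatty acid synthesis genes moved in both directions. Of 17 tested, 3 were called higher and 3 lower (35.3%, against 5.85% of all tested genes), with a median of 0.20. Acacb, the acetyl-CoA carboxylase whose malonyl-CoA blocks Cpt1a, was at 7.69, 7.69 and 7.48 TPM in WT and 17.5, 21.3 and 17.0 TPM in LPKO libraries (1.18 ± 0.22, adjusted p = 0.00181). Elovl3, which lengthens very long chains, went from 163 ± 59.9 to 49.0 ± 6.68 TPM (-1.66 ± 0.32, adjusted p = 0.00294). Fasn was at 88.2 ± 27.2 and 96.1 ± 13.4 TPM (adjusted p = 0.820) and Scd1 at 1329 ± 415 and 1175 ± 118 TPM (adjusted p = 0.945), both with overlapping groups. Srebf1, the gene for the lipogenic factor SREBP1, was at 40.4, 82.5 and 59.3 TPM in WT and 24.8, 25.0 and 24.6 TPM in LPKO libraries (-1.20 ± 0.33, adjusted p = 0.0366). Its call was lost without WT replicate 2 or 3 or any LPKO library (adjusted p up to 0.176), and that of Elovl6 without any WT library or LPKO replicate 1 or 3 (up to 0.138). Hacd3, called at adjusted p = 0.0499, lost its call without any 1 library. The list held 3 calls without LPKO replicate 1 or any WT library, and 2 without LPKO replicate 3.

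Cholesterol synthesis and uptake genes lay higher, with a median of 0.67, but most were not called. Of 25, 6 were called higher and 0 lower. This share of higher calls was above the 3.52% over all tested genes. The squalene epoxidase gene Sqle was at 17.4, 47.9 and 30.3 TPM in WT and 74.6, 62.0 and 81.1 TPM in LPKO libraries (1.27 ± 0.26, adjusted p = 0.00432). Mvd, the mevalonate decarboxylase gene, was at 5.36, 12.95 and 8.90 TPM in WT and 20.1, 16.2 and 20.2 TPM in LPKO libraries (1.04 ± 0.23, adjusted p = 0.00716), a call lost without WT replicate 1 and in a fit of these 6 libraries alone (adjusted p up to 0.068). RD WT replicate 1 held the lowest level of both. The number called was 2 without RD WT replicate 1, 13 without RD WT replicate 2, 3 without RD LPKO replicate 3, 14 after rescaling by median-of-ratios factors and 0 when the fit held the 6 libraries alone.

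Of 24 bile acid and sterol transport genes 3 were lower and 2 higher (20.8% called, against 5.85% of all tested genes, median -0.12). Abcg8 and Abcg5, which start next to each other on opposite strands of chromosome 17 and encode the partner subunits of the sterol exporter, fell together. Abcg8 was at 44.0, 55.0 and 51.0 TPM in WT and 21.2, 20.2 and 21.3 TPM in LPKO libraries (-1.21 ± 0.16, adjusted p = 7.37e-05), and Abcg5 at 35.6, 52.6 and 47.2 TPM and 22.3, 19.0 and 22.6 TPM (-1.03 ± 0.21, adjusted p = 0.00399). The organic anion transporter gene Slco1a4 rose from 24.4 ± 1.56 to 76.9 ± 7.42 TPM (1.62 ± 0.36, adjusted p = 0.00855). Slco1a1 was called as well (0.73 ± 0.19), but not without WT replicate 1 or LPKO replicate 1 (adjusted p up to 0.147).

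Calls among genes of sugar metabolism were few and depended on single libraries. Of 18 glycolysis genes, Aldoa (67.4 to 98.3 TPM) and Pdk4 were called higher and Ldha (383 to 259 TPM) lower, 16.7% of the list against 5.85% of all tested genes, with a median change of 0.26. The groups were wholly apart upward in 8 of the 18, against 19.2% of all tested genes. Without LPKO replicate 3, 0 of these genes were called, and without WT replicate 1 the median was 0.01. Of 15 glycogen genes, Gys2 (134 to 200 TPM) and Ppp1r3g (1.59 to 7.94 TPM) were called higher and 0 lower (13.3%, median 0.20), and 0 were called without WT replicate 1 or 3 or LPKO replicate 1 or 3. Of 18 glucose-producing genes 2 were lower and 0 higher (11.1%, median 0.08). G6pc, the last step of glucose release, was at 237, 180 and 211 TPM in WT and 74.8, 80.1 and 94.0 TPM in LPKO libraries (-1.32 ± 0.35, adjusted p = 0.0263). The groups were far apart, yet the call of G6pc, like that of the glycerol phosphate dehydrogenase gene Gpd1 (-0.82 ± 0.23), was lost without WT replicate 1 or 3 or any LPKO library (adjusted p up to 0.161). Pck1, the gate of gluconeogenesis, was at 1132 ± 417 and 1165 ± 140 TPM (0.09 ± 0.30, adjusted p = 0.915). Among transport genes the citrate carrier Slc13a5 was at 0.229, 0.301 and 0.114 TPM in WT and at 5.73, 2.64 and 4.23 TPM in LPKO libraries (2.06 ± 0.30, adjusted p = 0.000181), while the mitochondrial carriers Slc25a22 (154 to 72.2 TPM) and Slc25a34 (2.98 to 1.08 TPM) and the heme-synthesis gene Cpox (82.0 to 33.7 TPM) fell.

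Interferon-stimulated genes were the group with the most calls in the upward direction. Of 32 listed, 27 were tested and 14 called higher, 0 lower (51.9%, against 5.85% of all tested genes), with a median of 0.69. Usp18, which removes ISG15 from proteins and dampens the interferon receptor, was at 1.99, 3.83 and 2.33 TPM in WT and 18.2, 11.7 and 14.2 TPM in LPKO libraries (2.09 ± 0.22, adjusted p = 3.37e-06). Apol9a was at 7.08, 18.04 and 13.3 TPM in WT and 71.5, 50.4 and 46.2 TPM in LPKO libraries (2.11 ± 0.27, adjusted p = 5.39e-05), and its near-copy Apol9b at 35.02 ± 8.59 and 104 ± 16.1 TPM (1.56 ± 0.20). The groups of all 3 genes were far apart.

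Irf7, the transcription factor that amplifies interferon production, was at 6.29, 10.3 and 9.68 TPM in WT and 28.4, 22.1 and 20.2 TPM in LPKO libraries (1.34 ± 0.20, adjusted p = 0.000233). The RNA sensor gene Ifih1 (8.19 to 16.6 TPM), the ubiquitin-like modifier Isg15 (4.68 to 11.5 TPM) and the translation inhibitor Ifit1 (1.67 to 3.99 TPM) rose with adjusted p of at most 0.00502. In each of these genes RD WT replicate 1 was the lowest of the 6 libraries. Without RD WT replicate 1 there were 8 calls and without RD LPKO replicate 1 there were 9. Kupffer cell markers moved in the opposite direction in these libraries (given below) and their part in this result was not tested.

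The interferon-stimulated response element was searched as GAAA, any 2 bases and GAAA again, exact, on either strand. It was found in 6.34% of promoters of higher genes, 3.24% of lower genes, 3.77% of tested genes and 3.99% of all genes, and in 7 of the 11 called interferon genes that had a promoter. Stretches of 80 bases before the start are shown for 3 genes that rose, with matches in capitals. Isg15 lies at chr4:156200846-156200925 (minus strand), Ifit1 at chr19:34640759-34640838 (plus strand) and Apol9a at chr15:77411092-77411171 (minus strand).
Isg15: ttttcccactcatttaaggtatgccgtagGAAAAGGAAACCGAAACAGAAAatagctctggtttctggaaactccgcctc
Ifit1: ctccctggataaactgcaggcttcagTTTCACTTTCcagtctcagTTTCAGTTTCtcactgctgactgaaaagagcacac
Apol9a: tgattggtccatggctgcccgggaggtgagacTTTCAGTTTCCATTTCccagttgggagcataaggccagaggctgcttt
Isg15 holds 3 overlapping matches, Ifit1 holds 2 separate ones and Apol9a holds 2 that overlap, the last 2 genes on the opposite strand.

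**Figure D4:**
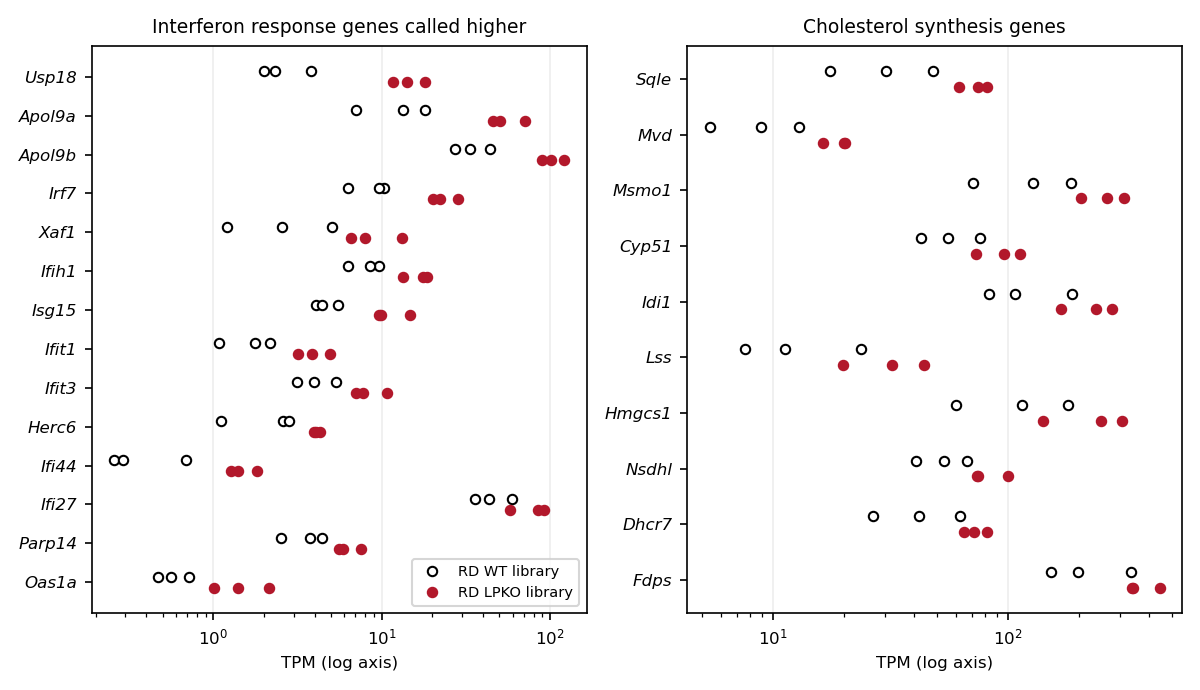
TPM on a log axis in the 3 RD WT (open) and 3 RD LPKO (red) libraries for the 14 interferon response genes called higher and for 10 genes of cholesterol synthesis. The WT circles spread more widely than the LPKO circles in all 10 cholesterol genes shown, and the groups overlap in Cyp51, Idi1, Lss and Hmgcs1 and, on the left, in Ifi27.

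Immediate early genes respond within minutes to growth factors or stress. Of 12 tested, 4 were called higher and 0 lower (33.3%, against 5.85% of all tested genes, median 0.89). Jun was at 6.29, 3.53 and 4.98 TPM in WT and 33.3, 14.2 and 29.2 TPM in LPKO libraries (2.10 ± 0.34, adjusted p = 0.00058). Atf3 stood at 0.846, 0.558 and 1.26 TPM in WT and 8.23, 1.73 and 5.68 TPM in LPKO libraries (1.57 ± 0.33, adjusted p = 0.00571). LPKO replicate 2 was the lowest LPKO library in both, as it was in Jund and Klf6. Without LPKO replicate 1 the list held 1 call, Jun, and without LPKO replicate 3 it held 2, Jun and Atf3. Fos and other members below 1 TPM on average were not tested.

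Of 21 complement genes 4 were higher and 2 lower, led by C2 (49.2 ± 7.85 to 81.3 ± 3.65 TPM, 0.72 ± 0.13) and C1ra (144 ± 9.68 to 194 ± 6.80 TPM, 0.43 ± 0.09); without any 1 library 2 or 3 were higher and 0 lower. The coagulation cofactor gene Pros1 rose from 23.3 ± 2.61 to 36.8 ± 0.852 TPM (0.64 ± 0.11, adjusted p = 0.00086), the 1 call among 21 coagulation genes. Of 27 NRF2 and glutathione genes, Gstm3 and the thioredoxin reductase gene Txnrd1 (41.1 to 60.9 TPM) rose and Gstt2 (102 to 49.5 TPM) was called lower, the last only with all 6 libraries. Calls either way made up 28.6% of the complement, 4.76% of the coagulation and 11.1% of the NRF2 list, against 5.85% of all tested genes. The chemokine gene Cxcl13 fell from 2.12, 6.34 and 3.49 TPM to 1.11, 0.859 and 0.487 TPM (-1.38 ± 0.26, adjusted p = 0.0021).

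The rest of mitochondrial metabolism did not share the fall of β-oxidation genes by this test. Of 34 nuclear respiratory chain genes and 22 citrate cycle genes 0 were called, with medians of 0.16 in both, and 0 of 22 ribosomal protein genes were called (median -0.02). The 13 transcripts of the mitochondrial genome had a median of -0.31 and 0 calls, with 8 of them lower in every LPKO than in every WT library, against 10.1% of all tested genes. They took 19.8%, 22.5% and 22.5% of TPM in WT and 18.5%, 17.6% and 17.9% in LPKO libraries. Without RD WT replicate 1, 2 of them were called lower, and after rescaling to the TPM left without Mup and mitochondrial-genome transcripts the test of RD LPKO against RD WT called 949 genes instead of 617.

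Markers of resident macrophages were lower in the RD LPKO libraries. All 12 Kupffer cell markers were tested, their median was -0.80, and 11 of them were lower in every LPKO than in every WT library (10.1% of all tested genes). Summed over the list they took 168, 271 and 182 TPM in WT and 104, 133 and 94.3 TPM in LPKO libraries, and none was at 0. Cd163 alone was called (8.33% of the list, against 5.85% of all tested genes). Its level went from 3.53 ± 0.623 to 1.28 ± 0.541 TPM (adjusted p = 0.0444). The call was lost without any WT library or LPKO replicate 1 or 3 (adjusted p up to 0.176). Clec4f, the marker most particular to these cells in mice, was at 31.5, 48.4 and 33.9 TPM in WT and 21.4, 25.4 and 19.3 TPM in LPKO libraries (-0.74 ± 0.29, adjusted p = 0.146). In HFD LPKO against HFD WT the Kupffer list had a median of -0.01 and 0 calls. In RD LFPKO against RD LFKO it had a median of -0.35 and 0 calls. In bulk tissue, fewer cells of a type and less RNA per cell cannot be told apart. Sinusoidal endothelial (10 tested, median -0.17) and stellate cell markers (11 tested, median -0.21) had 0 calls, and all 10 T or NK cell markers and all 7 dendritic cell markers were below 1 TPM on average.

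Separate contrasts compare mice labelled PPARα-/- with their own controls, in libraries other than those of RD LPKO and RD WT. All contrasts share the fit and its estimate of scatter, so their calls are not fully independent. On the high-fat diet LPKO against WT gave 499 calls (4.73%), 380 higher (3.6%) and 119 lower (1.13%). Of the 371 genes higher in RD LPKO livers, 340 (91.6%) had the same sign on the high-fat diet, where 70.5% of all tested genes were above 0, and 100 were called higher and 0 lower, a share of 27.0% of one list and 26.3% of the other. Of the 246 lower genes 224 (91.1%) had the same sign, against 29.5% of all tested genes, and 82 were called lower and 0 higher, which is 33.3% of the RD and 68.9% of the HFD list. In mice labelled FoxO1-/-, the added PPARα-/- genotype (RD LFPKO against RD LFKO) gave 536 calls (5.08%), 206 higher (1.95%) and 330 lower (3.13%). There 161 of the 246 lower genes were called lower and 2 higher, a share of 65.4% of the RD LPKO list and 48.8% of the other, and 93 of the 371 higher genes were called higher (25.1% and 45.1%) and 1 lower. The count for HFD LPKO against HFD WT was 198 without WT replicate 2, 238 and 264 without LPKO replicates 1 and 2 and 889 without LPKO replicate 3, and that for RD LFPKO against RD LFKO was 310 and 330 without LFKO replicates 1 and 3 and 278 without LFPKO replicate 3. The share of calls that were higher also moved with the scaling, from 76.2% to 51.8% (median-of-ratios) or 42.9% (without Mup and mitochondrial-genome transcripts) in the first and from 38.4% to 62.5% (the latter scaling) in the second.

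Called the same way in all 3 contrasts were 71 of the 246 lower genes (28.9%) and 30 of the 371 higher genes (8.09%). The log2 changes of Vnn1 were -3.68, -3.38 and -3.82 in RD LPKO, HFD LPKO and RD LFPKO livers, and those of Cyp4a32 were -3.16, -2.65 and -2.85. Decr2 (-1.78, -1.88 and -2.08), the glutaminyl cyclase gene Qpct (-1.67, -1.69 and -2.22) and Etfdh (-1.18, -1.23 and -1.46) fell in each. Among the higher genes Cib3 (4.56, 2.51 and 3.57), Blnk (3.01, 2.03 and 2.69), Synj2 (1.67, 1.38 and 1.41) and Tuba8 (1.81, 0.89 and 1.40) were called in each. Cyp4a14 changed by -0.92 on the high-fat diet and was not called there (adjusted p = 0.506), and the difference between diets did not pass either (3.74, adjusted p = 0.174). It was already low in HFD WT libraries, at 3.35 to 27.5 TPM against 288 to 808 TPM in RD WT, and at 2.08 to 10.1 TPM in HFD LPKO. In FoxO1-/- mice on the high-fat diet it was at 126 to 750 TPM in LFKO and 0.942 to 4.14 TPM in LFPKO libraries.

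**Figure D5:**
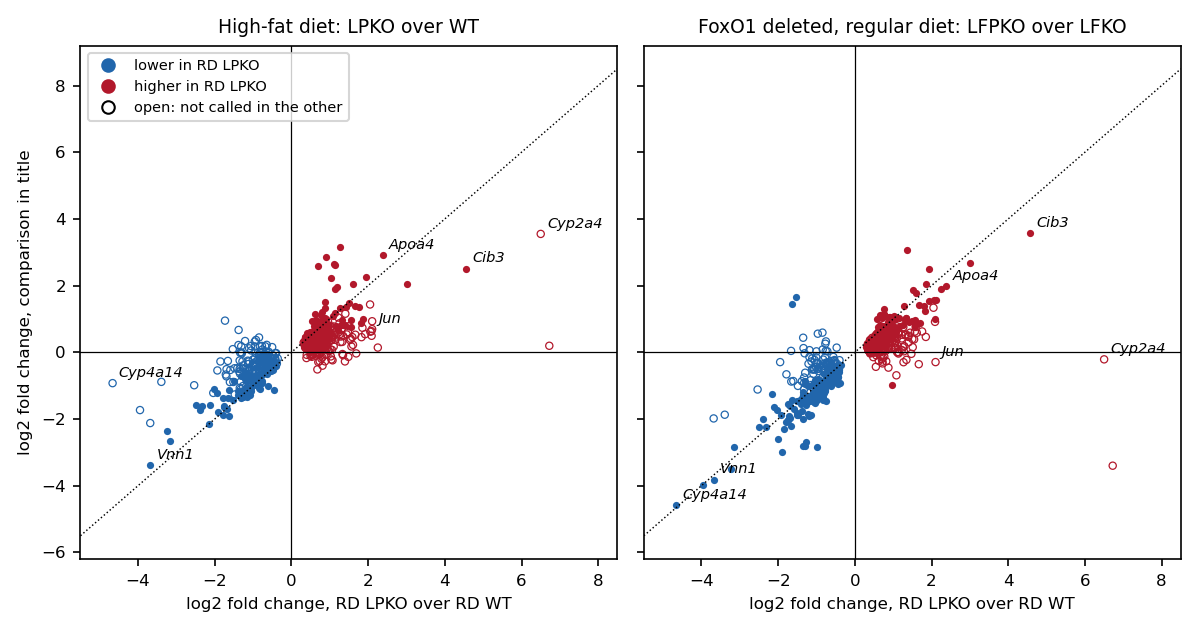
Log2 fold change in the high-fat diet contrast (left) and in the contrast with FoxO1 deleted (right), both on the vertical axis, against that of RD LPKO over RD WT for the 617 genes called in the latter; filled points were also called in the other contrast, blue were lower and red higher in RD LPKO livers, and the dotted line marks equal change. Vnn1 lies near the line in both panels, Cyp2a4 (6.50) is at -0.21 in the right panel, and the point at 6.72 is Gm14586, listed at 0 in every RD WT library. The RD LFKO controls of the right panel already held 227 to 233 TPM of Cyp2a4.

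The test of the difference itself called 18 genes between diets (0.171%), 12 with a higher difference on the high-fat diet (0.114%) and 6 with a lower one (0.0569%), among 852 with an unadjusted p under 0.05. Between FoxO1 backgrounds it called 27 (0.256%), 8 higher in FoxO1-/- mice (0.0758%) and 19 lower (0.18%), among 740. The cholesterol genes Idi1, Sqle and Cyp51 differed by diet: Sqle changed by 1.27 on the regular and 3.15 on the high-fat diet, and on the latter 22 of 25 cholesterol genes were called higher. Mmp15 changed by 1.69 on the regular and -0.03 on the high-fat diet. Between FoxO1 backgrounds, Jun changed by 2.10 in mice without a stated FoxO1 deletion and by -0.29 in FoxO1-/- mice, whose controls already stood at 18.03 to 25.14 TPM. Mup12, a major urinary protein gene, changed by -1.63 and 1.46, and its level was 439 to 461 TPM in RD WT, 97.4 to 270 TPM in RD LPKO, 39.5 to 69.2 TPM in RD LFKO and 114 to 184 TPM in RD LFPKO libraries. The call of Mup12 in RD LPKO livers was lost without LPKO replicate 1 or 3 (adjusted p up to 0.0951). Leaving out any 1 of the 12 libraries other than RD LPKO replicate 2 moved the diet count by over 1.5 times, from 3 without RD LPKO replicate 1 to 60 without HFD LPKO replicate 3. The FoxO1 count lay between 8 (without RD LPKO replicate 3) and 16 without WT replicate 2 or 3, LFKO replicate 2 or 3 or any LFPKO library.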

How the data were processed

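TPM per gene for 24 libraries were computed by the authors and used as deposited. Per the labels' protocols, RNA was extracted with Trizol and libraries were made with a stranded mRNA kit. Kallisto, GRCm38 and mm10 are listed in the submitters' processing notes; the sources used here give no version, annotation or strand setting. The file holds 34945 named genes, 13131 at 0 throughout, and the test took the 10551 whose TPM averaged at least 1. A line without a gene name (at most 0.025% of TPM) was left out.

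Log2(TPM + 1) was fitted with limma 3.58.1 in R 4.3.3, with 1 mean per group over 24 libraries (16 residual degrees of freedom), a variance trend and two-sided p-values adjusted by Benjamini-Hochberg within a comparison. An exact permutation test of 3 against 3 cannot go below 0.1, so none was used. On simulated data for RD LPKO against RD WT (10551 genes) 86% of planted log2 changes of 1 and 94% of 2 were called, with 7 false calls among 187. That simulation planted 200 changes in independent normal noise with the same SD in every group for a gene. Its rates need not hold for the real libraries, where neither condition is given.

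Named genes were Ppara and Foxo1, the 15 largest log2 changes each way (called, groups apart, at least 5 TPM in the higher group, no predicted names), the 10 largest TPM changes each way, the 6 smallest adjusted p each way, up to 6 members per list plus members called against it or not called, and up to 5 genes each way per difference between contrasts. Members and gene lists were chosen with earlier results of these data known. Gene positions are from GENCODE M21, promoters from RefSeq. Alternatives were another pseudocount (0.1), filter (none, or 5 TPM), scaling, set of libraries and a replicate block. Some genes are not reported here. Plots used matplotlib 3.10.9 (Python 3.11.15).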

Additional observations from a re-analysis of the deposited data

Results flagged for a closer look

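These genes changed differently in RD LPKO against RD WT and in another contrast by the limma interaction test; effects are log2 changes ± SE of the difference, adjusted over all 10551 genes, and all 17 were called in RD LPKO against RD WT. That call was lost without WT replicate 1, 2 or 3 or LPKO replicate 2 or 3 for Aqp11 (adjusted p up to 0.212 over its alternatives), without WT replicate 1 or 3 or LPKO replicate 1 or 3 for Idi1 (up to 0.201) and Cyp51 (up to 0.161), without WT replicate 2 or 3 or LPKO replicate 1 or 2 for Gm47283 (up to 0.111), without WT replicate 1 or LPKO replicate 2 or 3 for Fgf21 (up to 0.121), and without LPKO replicate 1 or 3 for Mup12 (up to 0.0951). For Sqle it was lost in a fit of the compared groups alone (0.0676). Among those that differed by diet (high-fat minus regular), the cholesterol synthesis genes Cyp51 (1.88 ± 0.26, adjusted p = 0.00538), Idi1 (1.96 ± 0.36, adjusted p = 0.0323) and Sqle (1.88 ± 0.36, adjusted p = 0.0411) had larger LPKO over WT changes on the high-fat diet, of 2.58, 2.86 and 3.15. Cyp51 averaged 58.0 TPM in RD WT, 93.9 in RD LPKO, 11.6 in HFD WT and 75.1 in HFD LPKO libraries. In the same order Idi1 averaged 126, 227, 17.7 and 133 TPM, and Sqle 31.9, 72.6, 4.34 and 47.2 TPM. Each mean was thus lower on the high-fat diet in both WT and LPKO livers. Cd276 (-1.67 ± 0.27, adjusted p = 0.0114), Mmp15 (-1.72 ± 0.29, adjusted p = 0.0133), the prolyl isomerase gene Fkbp11 (-1.31 ± 0.25, adjusted p = 0.0406) and the transglutaminase gene Tgm1 (-1.62 ± 0.32, adjusted p = 0.0422) were higher in RD LPKO livers and changed by -0.27, -0.03, -0.24 and -0.14 on the high-fat diet. The folate enzyme gene Fpgs (1.28 ± 0.25, adjusted p = 0.0422) fell by 0.96 on the regular diet and changed by 0.32 on the high-fat diet. The melatonin receptor gene Mtnr1a (1.19 ± 0.24, adjusted p = 0.0422) was at 2.06, 2.88 and 2.95 TPM in RD WT and at 0.208, 0 and 0.156 TPM in RD LPKO libraries, and changed by -0.50 on the high-fat diet.

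By FoxO1 background (FoxO1-/- mice minus the others, both on the regular diet), Jun (-2.40 ± 0.49, adjusted p = 0.0338), the aquaporin gene Aqp11 (-1.95 ± 0.37, adjusted p = 0.0237) and Ttc39a (-1.77 ± 0.33, adjusted p = 0.0229) were higher in RD LPKO livers and changed by -0.29, -0.97 and -0.69 in FoxO1-/- mice. Fgf21 (-1.85 ± 0.35, adjusted p = 0.0229) changed by -0.99 in RD LPKO livers and by -2.84 in FoxO1-/- mice. The splicing factor gene Celf2 (1.25 ± 0.24, adjusted p = 0.0237) changed by -1.18 and 0.07, and Mup12 (3.09 ± 0.54, adjusted p = 0.0164) by -1.63 and 1.46.

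Predicted genes also differed by FoxO1 background. Gm14586 (-10.12 ± 2.14, adjusted p = 0.0485) is a processed pseudogene on chromosome X, from 52772342 to 52772749, and was listed at 0 in all 3 RD WT libraries, in 1 RD LFPKO and in 1 HFD LFPKO library, while every other group stood at 63.3 TPM or above. In the libraries where it was not 0 it lay between 63.3 and 279 TPM, so no fold is given. Gm47283 (3.18 ± 0.53, adjusted p = 0.0101), annotated on chromosome Y, was at 45.8 to 125 TPM in RD WT, 18.7 to 37.8 TPM in RD LPKO, 13.1 to 20.1 TPM in RD LFKO and 45.8 to 58.5 TPM in RD LFPKO libraries. What sets these levels was not tested.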

How the results depend on the processing

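Of 186 named genes called in RD LPKO against RD WT, 102 were called under each of the 13 alternatives in which they were tested (151 of the 186 at a mean TPM of at least 5, 184 without Mup and mitochondrial-genome transcripts), 84 lost the call under at least 1 and 0 changed sign. The count of 617 calls was 996 after median-of-ratios scaling, 949 without Mup and mitochondrial-genome transcripts and 312 to 501 when 1 library was left out. For HFD LPKO against HFD WT (499) it was 147 in a fit of those groups alone and 198 to 889 without 1 library, and for RD LFPKO against RD LFKO (536) it was 866 and 992 under these scalings and 278 to 445 without 1 library. For LPKO effect by diet (HFD minus RD) (18) it was 10 with no filter, 50 under either scaling and 3 to 60 without 1 library. For LPKO effect by FoxO1 (without FoxO1 minus with FoxO1, RD) (27) it was 16 with a pseudocount of 0.1, 14 at a mean TPM of at least 5, 74 in a fit of those groups alone and 8 to 27 without 1 library. The share of lower genes with a PPAR element, 5.95% by promoter motifs with at most 2 mismatches, was 2.16% with at most 1 and 0.0% with 0. The causes were not tested. Scaling moved the median of all genes in HFD LPKO against HFD WT from 0.11 to -0.01 and in RD LPKO against RD WT from 0.05 to 0.02.

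The replicate block gave 590 calls in RD LPKO against RD WT. Deviations of libraries with the same number correlated at -0.0326, 0.0514 and -0.0352 across genes, and the largest correlation was between WT replicate 3 and LPKO replicate 1 (0.0953). No pairing by number was thus seen across all genes, but a pairing that touches only some genes would not show in these values. Depth is unknown in TPM, so no interval could be put on values of single libraries.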

Other observations

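The genes named here were chosen after their values were seen, no list of them was tested, and leaving out libraries was tried only for Cdh1 among them, whose call in RD LPKO against RD WT was lost without LPKO replicate 1 and in a fit of the compared groups alone (limma adjusted p up to 0.0576). Ocln, a tight junction protein gene, was at 7.13, 7.65 and 8.25 TPM in WT and at 23.3, 17.5 and 25.3 TPM in LPKO libraries (1.40 ± 0.20, limma adjusted p = 0.000181). The E-cadherin gene Cdh1 was at 5.56, 6.77 and 5.96 TPM in WT and 17.95, 8.54 and 15.7 TPM in LPKO libraries (1.03 ± 0.22, adjusted p = 0.00563). The tricellular junction genes Marveld2 (4.44 to 10.9 TPM) and Lsr (70.9 to 128 TPM), the adhesion genes Cxadr (15.8 to 35.03 TPM) and Dsc2 (16.4 to 28.8 TPM) and the membrane protease gene Prss8 (4.10 to 14.1 TPM) were also called higher. In Ocln, Cdh1, Marveld2, Cxadr, Dsc2 and Prss8 LPKO replicate 2 was the lowest of the 3 LPKO libraries. The claudin gene Cldn1 was called in the opposite direction (25.0 to 15.7 TPM, -0.64 ± 0.19, adjusted p = 0.0475), and Tjp1 did not pass (0.41 ± 0.12, adjusted p = 0.0502).

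Receptor genes chosen in the same way moved both ways. The leptin receptor gene Lepr was at 0.585, 0.829 and 0.706 TPM in WT and 4.47, 1.75 and 4.38 TPM in LPKO libraries (1.35 ± 0.27, limma adjusted p = 0.00399), and the innate immune receptor gene Tlr2 at 0.628, 0.747 and 0.683 TPM in WT and 7.68, 1.72 and 4.71 TPM in LPKO libraries (1.61 ± 0.37, adjusted p = 0.0107). The prolactin receptor gene Prlr was at 56.5, 73.5 and 107 TPM in WT and 31.5, 34.96 and 36.1 TPM in LPKO libraries (-1.14 ± 0.29, adjusted p = 0.0216). In none of these did the groups overlap. The mitotic kinase gene Wee1 (3.46 to 11.99 TPM) and the uridine phosphorylase gene Upp2 (221 to 425 TPM) rose.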
